A study of Rattus norvegicus with 87 samples.

Results

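The genes described here are 6 rows of an expression table of 17512 genes measured in a nucleus of the rat brain, the lateral habenula (LHb), in Heterogeneous Stock (HS) rats: Aif1, C1qa, C1qc, Tyrobp, Itgam and Ptprc. They were taken by gene identifier as markers of microglia and of the complement component C1q, and all 6 rows were present. Their identifiers were ENSRNOG00000000853 (Aif1), ENSRNOG00000012807 (C1qa), ENSRNOG00000012804 (C1qc), ENSRNOG00000020845 (Tyrobp), ENSRNOG00000019728 (Itgam) and ENSRNOG00000000655 (Ptprc). The row called C1qc had been selected under the symbol C1qb, but the study's own table pairs that identifier with C1qc, and that name is used here.

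HS rats are an outbred population descended from inbred founder strains, so each rat has its own genome. The LHb, which belongs to the epithalamus, had been cut out of frozen sections by hand, the left and right sides of a rat were pooled, and polyadenylated RNA was sequenced. The 81 rats, 41 males and 40 females, were naive to behavioural testing and drugs and had been group housed, so the only labels that differ between them are sex and rat batch. There were 11 males and 4 females in batch 2, 10 and 12 in batch 3, 12 and 15 in batch 4, and 8 and 8 in batch 6, and the 1 female of batch 5 entered no test.

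Microglia are the resident macrophages of the brain, and they are its main source of the C1q chains. C1q is built from A, B and C chains, is the first recognition molecule of the classical complement pathway, and tags synapses and debris for removal by microglia. TYROBP (DAP12) is the adaptor that carries the signal of receptors such as TREM2 into the cell. AIF1, also called IBA1, is a calcium- and actin-binding protein used to stain microglia, ITGAM (CD11b) is the alpha chain of complement receptor 3, and PTPRC (CD45) is a phosphatase found on all white blood cells and at a low level on microglia. None of the 6 genes tells microglia from other macrophages on its own, and most are also expressed in blood monocytes. In such bulk tissue, fewer cells of a type and less RNA per cell cannot be told apart.

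Promoter sequences are shown for the members for which one was at hand, because the members are myeloid genes and the factor PU.1 binds sites with the core GAGGAA in such genes. Sequence was matched for 3 of the 6 genes and is from RefSeq, build GRCr8, with 250 bases before the annotated start, written 5′ to 3′ on the gene's strand. The expression table itself was made with another build. Capitals mark GAGGAA or its complement TTCCTC, the motif searched on both strands. C1qa lies at chr5:154419934-154420183 on the minus strand, Itgam at chr1:192089342-192089591 on the plus strand and Ptprc at chr13:52259747-52259996 on the minus strand.
C1qa: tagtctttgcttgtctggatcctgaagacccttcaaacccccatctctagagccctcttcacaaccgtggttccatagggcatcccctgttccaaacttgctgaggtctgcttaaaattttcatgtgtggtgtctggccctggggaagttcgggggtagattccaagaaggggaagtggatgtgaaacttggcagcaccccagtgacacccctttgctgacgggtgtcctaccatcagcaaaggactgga
Itgam: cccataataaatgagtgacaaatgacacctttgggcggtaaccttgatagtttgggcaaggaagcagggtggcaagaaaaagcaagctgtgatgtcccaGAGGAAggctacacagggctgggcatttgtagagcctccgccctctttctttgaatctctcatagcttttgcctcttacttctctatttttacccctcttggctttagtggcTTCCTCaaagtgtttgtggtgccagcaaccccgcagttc
Ptprc: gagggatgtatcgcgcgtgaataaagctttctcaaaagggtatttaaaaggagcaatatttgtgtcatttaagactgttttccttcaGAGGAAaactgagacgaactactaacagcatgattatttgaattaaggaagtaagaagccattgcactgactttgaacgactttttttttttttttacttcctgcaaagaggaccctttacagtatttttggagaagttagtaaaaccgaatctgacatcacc
The C1qa window held no copy of these letters, the Itgam window held 1 copy in each orientation, and the Ptprc window held 1 copy. The motif was found in 7812 of 33469 promoter windows of the same length, or 23.3%, so a match describes the letters only. In the RefSeq gene order, C1qb, C1qc and C1qa follow each other on chromosome 5, Tyrobp on chromosome 1 stands next to Hcst, which encodes another signalling adaptor, and Itgam on chromosome 1 stands next to Itgax, another integrin alpha chain. Aif1 stands between Ncr3 and Prrc2a on chromosome 20.

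A value is given as a normalized count, that is the upper-quartile-adjusted estimated read count, or as its log2 after adding 1. The scaled total was 16.2 to 20.2 M per rat, where M is 1000000 counts, and the depth before scaling, which could be recovered for 72 rats, had a median of 18.3 M and was 5.74 M at the lowest. The scaling of that lowest library lay outside the range tried on simulated libraries, and some recovered depths may be off by a whole factor. Rats had 296 to 1661 genes at 0. Along the columns of the table, the rat identifiers fall into 3 stretches, called column runs here, and the labels do not say what they are. Each stretch is in alphabetical order once a pair of rats of run 2, whose labels were exchanged after a genotype check, is read under the labels they first had. The rats of batch 2 formed part of run 1, those of batches 4, 5 and 6 were in run 3, and batch 3 had 7 rats in the first, 12 in the second and 3 in the last. The mean log2 level of 12 ribosomal protein genes, followed because it moved with several of the members, was 11.38 ± 0.25 (SD, n = 15) in batch 2, 11.52 ± 0.35 (n = 22) in batch 3, 11.10 ± 0.33 (n = 27) in batch 4 and 10.74 ± 0.14 (n = 16) in batch 6.

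One library stood apart for these genes. Female rat 32 of batch 3, in column run 2, had 277 genes above every other rat by more than 1 on the log2 scale, whereas no other library had more than 31 and the median library had 0. Ptprc was at 1009 normalized counts in this rat and at most 95 in the others. Tyrobp was at 1121 against at most 401, Aif1 at 470 against at most 415 and Itgam at 354 against at most 287. C1qa, at 1212, and C1qc, at 559, were inside the range of the other rats. The members therefore divided in this rat, with 4 of them at their highest value and the C1q chains in mid range. Values without it are given beside the results below that it changes.

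All 6 genes were above 0 in all 81 rats. C1qa ranged from 515 to 1880 normalized counts with a median of 974, and C1qc from 281 to 915 with a median of 495. These are the chains of the complement recognition molecule, and no rat had a value near 0 for either. Aif1 ranged from 112 to 470 with a median of 206, and Itgam from 111 to 354 with a median of 188. Tyrobp, the adaptor, ranged from 77 to 1121 with a median of 142, and to 401 without female rat 32. Ptprc was the member with the lowest counts, from 19 to 1009 with a median of 58, and the highest was 95 without female rat 32. Counts are not per length, so the levels of different genes are not compared.

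**Figure D1:**
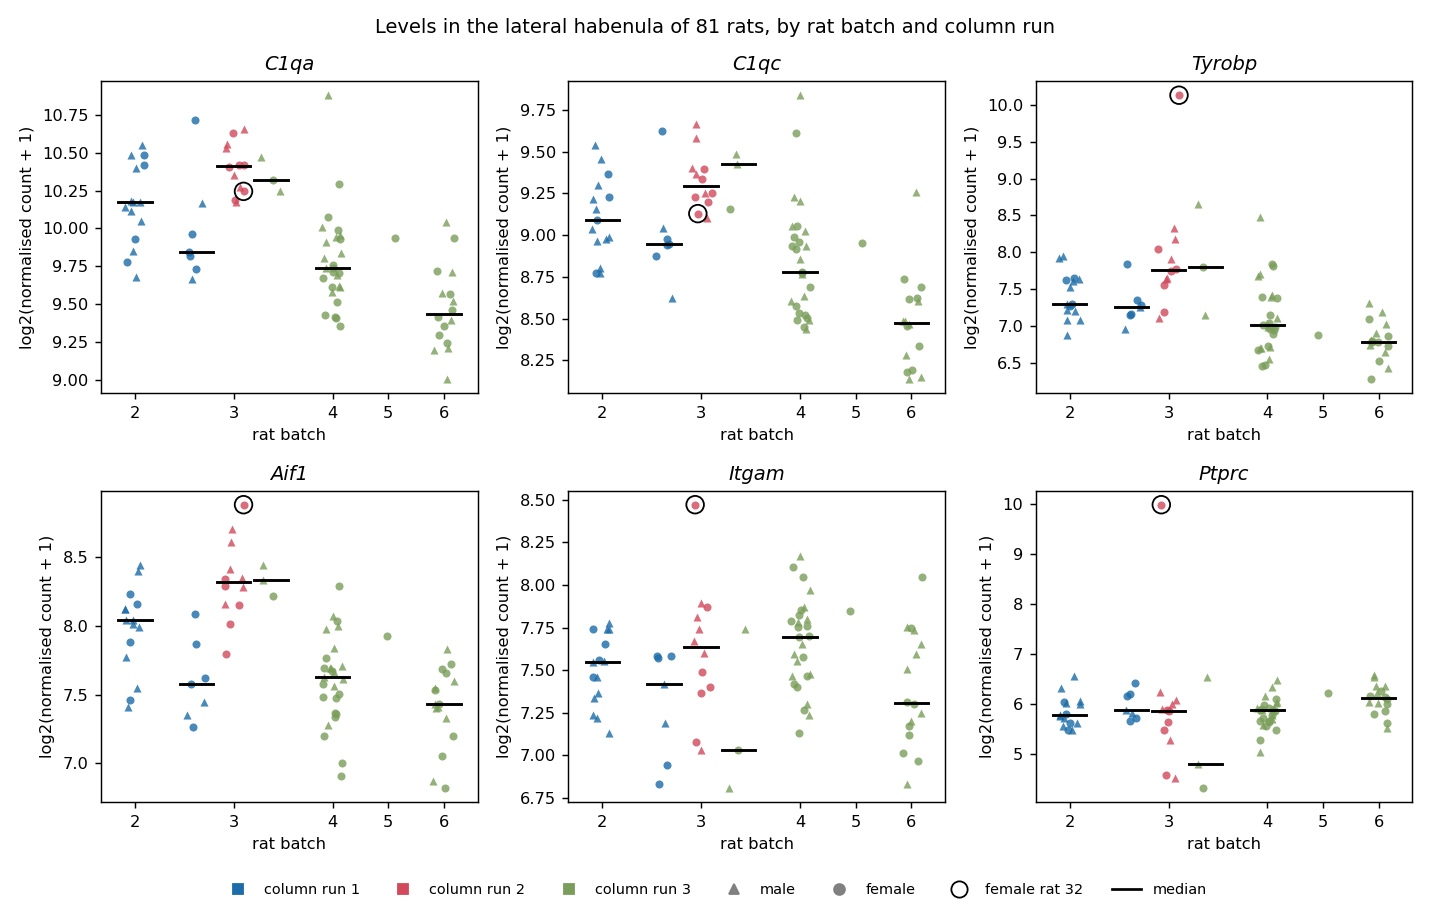
Deposited log2 level (vertical axis, log2 of the normalized count plus 1) of the 6 genes in every rat, by rat batch (horizontal axis). Triangles mark males, circles females and colours the column run. Bars give the median of the rats of a batch within a column run, so batch 3 has a bar for each run. Female rat 32 is ringed. Aif1, C1qa, C1qc and Tyrobp lie lower in batches 4 and 6 than in batch 3 with overlap between batches, whereas the Ptprc medians of batches 2, 3, 4 and 6 lie between 54 and 69 normalized counts and 1 rat, at 9.98, is far above the rest.

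No member passed the test for a difference between the sexes. C1qa was at 606 at the lowest, a median of 890.5 and 1679 at the highest normalized counts in females, and at 515, 1031 and 1880 in males. C1qc was at 289, 486 and 789 in females and at 281, 521 and 915 in males. The ranges overlapped almost entirely. Aif1 was at 112, 202 and 470 in females and at 116, 227 and 415 in males. Tyrobp was at 77, 141 and 1121 in females and at 85, 147 and 401 in males. Itgam (113, 188.5 and 354 in females, 111, 187 and 287 in males) and Ptprc (19, 57 and 1009 in females, 22, 63 and 95 in males) likewise overlapped.

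In the limma fit on 80 rats with rat batch as a covariate, 0 of the 6 members passed an adjusted p of 0.05, against 0.131% of all genes (23 genes), and 882 genes had an unadjusted p under 0.05. The estimate, male minus female on the log2 scale, was 0.15 for Aif1 (SE 0.078, unadjusted p = 0.0576, adjusted p = 0.992). It was 0.08 for C1qa (SE 0.066), 0.08 for C1qc (SE 0.066), 0.06 for Tyrobp (SE 0.11), 0.04 for Ptprc (SE 0.14) and 0.02 for Itgam (SE 0.073). None of the members had an unadjusted p under 0.05. Within batches 2, 3, 4 and 6 the Aif1 estimate was 0.06, 0.20, 0.22 and 0.04, so males were higher in each, by less than the spread between rats. With female rat 32 left out, 0 of the 6 passed by limma against 0.148% of genes, and Aif1 differed by 0.17 (SE 0.076, unadjusted p = 0.0259), which did not hold after adjustment (adjusted p = 0.859). The sex by batch interaction passed for 0 of the 6 members and for 0 genes, or 0% of all (limma F-test, 306 genes at an unadjusted p under 0.05).

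Rat batch was the label along which the members differed most. In the F-test over batches 2, 3, 4 and 6 with sex as a covariate, 4 of the 6 members passed, against 65.3% of all genes, so a share of this size is near the background. The adjusted p was 5.4e-11 for C1qa, 1.0e-09 for C1qc, 1.5e-07 for Aif1 and 4.2e-06 for Tyrobp. Itgam (adjusted p = 0.065) and Ptprc (adjusted p = 0.585) did not pass. Without female rat 32 all 6 passed, Itgam at an adjusted p of 0.0217 and Ptprc at 0.0395, against 65% of all genes.

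The C1q chains were highest in batch 3 and lowest in batch 6. C1qa was at 818 at the lowest, a median of 1156 and 1500 at the highest normalized counts in batch 2, at 814, 1255 and 1679 in batch 3, at 656, 853 and 1880 in batch 4, and at 515, 693.5 and 1056 in batch 6. C1qc was at 436, 544 and 744 in batch 2, at 394, 603.5 and 812 in batch 3, at 346, 438 and 915 in batch 4, and at 281, 355 and 611 in batch 6. The ranges of batches 3 and 6 overlapped for both chains, and the highest rat of all was in batch 4. The fitted difference of batch 6 minus batch 3 was -0.79 for C1qa (SE 0.094, adjusted p = 1.2e-10) and -0.75 for C1qc (SE 0.095, adjusted p = 4.6e-10) on the log2 scale.

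Aif1 and Tyrobp had the same order of batches. Aif1 was at 169, 263 and 347 normalized counts (lowest, median, highest) in batch 2, at 153, 291 and 470 in batch 3, at 119, 197 and 312 in batch 4, and at 112, 172 and 227 in batch 6. Tyrobp was at 117, 157 and 247 in batch 2, at 124, 199.5 and 1121 in batch 3, at 87, 128 and 356 in batch 4, and at 77, 109.5 and 158 in batch 6. The Tyrobp median of batch 3 was 199 without female rat 32 and its highest value 401. Batch 6 minus batch 3 was -0.70 for Aif1 (SE 0.11, adjusted p = 1.5e-07) and -0.92 for Tyrobp (SE 0.16, adjusted p = 1.0e-06), and the Tyrobp difference was -0.80 without female rat 32.

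Itgam and Ptprc did not have that order. On the log2 scale the lowest, median and highest level of Itgam were 7.13, 7.55 and 7.77 in batch 2, 6.81, 7.53 and 8.47 in batch 3, 7.13, 7.69 and 8.17 in batch 4, and 6.83, 7.31 and 8.05 in batch 6. Ptprc was at 44, 54 and 93 normalized counts in batch 2, at 19, 57.5 and 1009 in batch 3, at 32, 58 and 88 in batch 4, and at 45, 69 and 95 in batch 6. Batch 6 minus batch 3 was -0.07 for Itgam (SE 0.10, adjusted p = 0.561) and 0.23 for Ptprc (SE 0.21, adjusted p = 0.337). With female rat 32 left out, Ptprc was higher in batch 6 than in batch 3 by 0.43 (SE 0.14, adjusted p = 0.0055), so that 5 of 6 members passed against 58.8% of genes. Itgam was then higher in batch 4 than in batch 3 by 0.24 (adjusted p = 0.0138, against 0.0647 with the rat), so that 5 of 6 passed against 54% of genes.

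The pairs of batches differed in how many members passed. For batch 6 minus batch 3, 4 of 6 members passed, all lower in batch 6, against 59.2% of genes in either direction and 27.4% that were lower. For batch 4 minus batch 3 the same 4 were lower, against 54.9% of genes that passed and 26.2% that were lower, with differences of -0.48 for C1qa, -0.49 for Aif1, -0.38 for C1qc and -0.60 for Tyrobp. For batch 6 minus batch 2 they were lower against 42.4% of genes that passed and 21.8% that were lower, with estimates of -0.66 for C1qa, -0.61 for C1qc, -0.53 for Aif1 and -0.60 for Tyrobp. For batch 4 minus batch 2, against 33.9% of genes that passed and 17.7% that were lower, C1qa (-0.35), Aif1 (-0.32) and C1qc (-0.24) passed, and Tyrobp was at -0.28 (adjusted p = 0.172). For batch 6 minus batch 4, against 6.04% of genes that passed and 2.35% that were lower, the C1q chains alone passed, C1qc at -0.37 (adjusted p = 0.0111) and C1qa at -0.31 (adjusted p = 0.0308). For batch 3 minus batch 2, 0 of 6 passed by limma against 7.44% of genes, and none of the 6 had an unadjusted p under 0.05 (lowest p = 0.0583, Tyrobp).

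**Figure D2:**
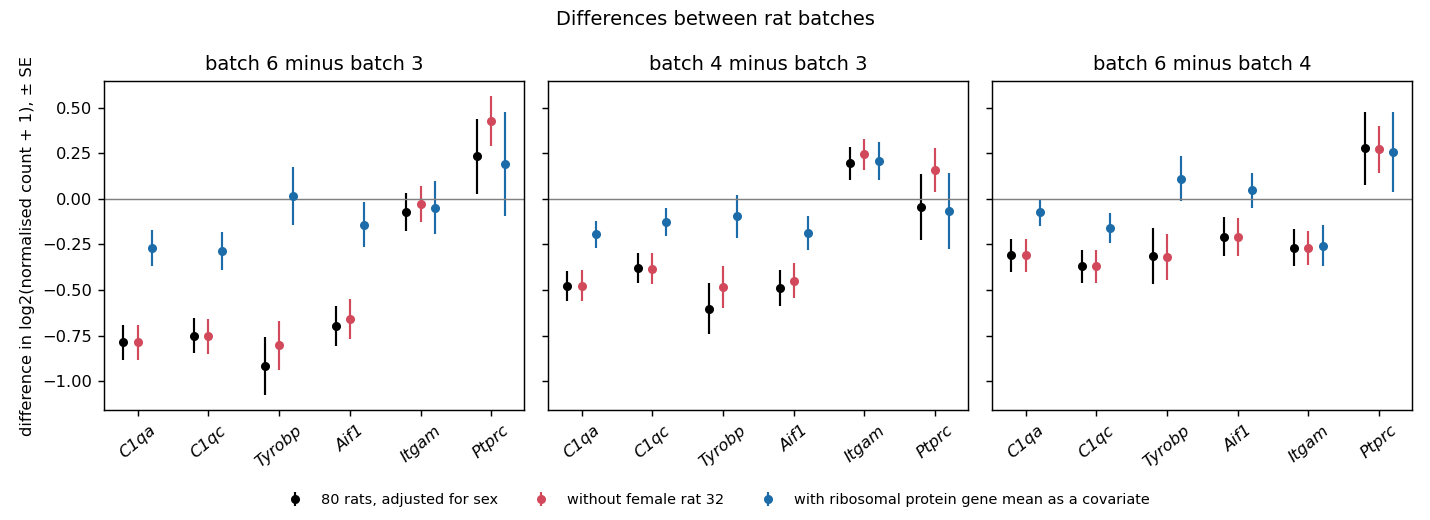
Difference between rat batches (log2, points) with its standard error (bars) for the 6 genes, for batch 6 minus 3, batch 4 minus 3 and batch 6 minus 4, over 80 rats, without female rat 32, and with the ribosomal protein mean as a covariate. The estimates of C1qa, C1qc, Aif1 and Tyrobp for batch 6 minus 3, between -0.92 and -0.70 over 80 rats, lie nearer to 0 with the covariate, and that of Tyrobp then lies just above 0, at 0.015.

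The column runs moved with the same members inside batch 3. Aif1 was at 153, 190 and 270 normalized counts (lowest, median, highest) in the 7 rats of run 1 and at 221, 317.5 and 470 in the 12 rats of run 2. C1qa was at 814, 918 and 1679 in run 1 and at 1157, 1359 and 1609 in run 2, and C1qc at 394, 493 and 789 in run 1 and at 549, 627.5 and 812 in run 2. Run 2 had the higher medians for each of these genes. Run 2 minus run 1, with sex as a covariate, was 0.72 for Aif1 (SE 0.14, adjusted p = 0.0038), 0.42 for C1qa (SE 0.12, adjusted p = 0.0169) and 0.32 for C1qc (SE 0.11, adjusted p = 0.0387), against 23% of all genes that passed. Tyrobp was at 0.71 (SE 0.29, adjusted p = 0.0762), and at 0.45 without female rat 32, when the same 3 genes passed against 21.6% of all genes. Ptprc was at 0.06 with female rat 32 and at -0.41 without it (adjusted p = 0.94 and 0.226). In the 3 rats of batch 3 in run 3, Aif1 was at 297, 322 and 347, C1qa at 1212, 1274 and 1419, C1qc at 569, 687 and 716, and Ptprc at 19, 27 and 92. These 3 rats had 1404 to 1578 genes at 0.

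Some batches could be compared within 1 column run. All rats of batches 4 and 6 were in run 3, so their comparison there used the same rats as above and is not a repeat. Fitted by limma without the other batches, batch 6 minus batch 4 was -0.37 for C1qc (adjusted p = 0.0196) and -0.31 for C1qa (adjusted p = 0.0273), against 10% of genes. In run 1, batch 3 minus batch 2 was called by limma for 0 genes, 0% of all, although 1507 had an unadjusted p under 0.05, and Aif1 was at -0.40 (SE 0.15, unadjusted p = 0.0142, adjusted p = 0.52). The whole F-test with column run as a covariate called 5 of the 6 members, all but Ptprc, against 35.3% of all genes. In that fit, batches 4 and 6 were set against batch 3 only through its 3 rats in run 3, which had 1404 to 1578 genes at 0. Batch 2 was set against batch 3 only through its 7 rats in run 1.

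The ribosomal protein genes moved with 4 of the members. Inside batch 3 their mean log2 level was 11.25 in run 1, 11.65 in run 2 and 11.67 in run 3, so batches and runs with high C1q counts also had high ribosomal counts. Across 80 rats, after sex and batch had been removed, the correlation with the ribosomal mean was r = 0.70 for Tyrobp (rho = 0.71), 0.66 for C1qa (rho = 0.65), 0.60 for Aif1 (rho = 0.48) and 0.59 for C1qc (rho = 0.54). Each had a permutation p of 1e-05 for r and for rho, the smallest that 100000 permutations within batch give, and 1.5e-05 after adjustment over the 6 genes. Without the 2 rats farthest from the median of the ribosomal mean, r was 0.65, 0.61, 0.56 and 0.55 in that order. Itgam (r = 0.03, rho = -0.01, permutation p = 0.804 and 0.914) and Ptprc (r = -0.02, rho = -0.14, permutation p = 0.866 and 0.219) did not pass. Without female rat 32, Ptprc had r = -0.26 (permutation p = 0.0368, adjusted p = 0.0442) and rho = -0.21 (permutation p = 0.0647, adjusted p = 0.0776), with r = -0.19, -0.33, -0.29 and 0.09 within batches 2, 3, 4 and 6. The other 5 members kept their side of the threshold without that rat. The share of all genes that would pass with the ribosomal mean was not computed. A pass by itself therefore does not set a member apart from other genes.

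The relation did not hold in every batch. For Aif1, r with the ribosomal mean was 0.69, 0.79 and 0.68 in batches 2, 3 and 4 and -0.67 in batch 6. For C1qa it was 0.80, 0.69 and 0.77, and 0.02 in batch 6, where the ribosomal mean varied least. For C1qc it was 0.77, 0.61, 0.66 and 0.14, and for Tyrobp 0.74, 0.69, 0.77 and 0.29. With the ribosomal mean as a covariate, a setting chosen after the data were examined, 0 of the 6 members passed the F-test over batches by limma, against 34% of all genes. The adjusted p was then 0.0505 for C1qa, 0.133 for C1qc, 0.341 for Aif1 and 0.638 for Tyrobp. Batch 6 minus batch 3 was then -0.27 for C1qa, -0.29 for C1qc, -0.14 for Aif1 and 0.015 for Tyrobp, so that the Tyrobp estimate changed sign. Of the pairwise differences under this covariate, batch 4 minus batch 3 of C1qa (-0.20, adjusted p = 0.0365) was called and no other. Of all 17512 genes, 4754 were called by limma for that pair of batches under this covariate. For the other pairs, 798 (3 minus 2), 4679 (4 minus 2), 1908 (6 minus 2), 773 (6 minus 3) and 25 (6 minus 4) were called. The part of the ribosomal level in the batch differences was not tested beyond this, and batch and ribosomal level go together in these rats.

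The C1q chains rose and fell together from rat to rat. After sex and batch had been removed, the correlation of C1qa with C1qc across 80 rats was r = 0.86 and rho = 0.82 (permutation p = 1e-05 for each, adjusted p = 7.5e-05 and 3.75e-05 over the 15 pairs of members). It was 0.82 without the 2 rats farthest from the C1qa median, and 0.93, 0.91, 0.85 and 0.79 within batches 2, 3, 4 and 6. It was 0.86 without female rat 32, and with the ribosomal mean removed it was 0.77. Among 13355 other genes whose mean log2 level reached 5, none had a higher r with C1qa than C1qc had, nor the reverse.

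The balance between the chains was narrow. The log2 level of C1qa minus that of C1qc was 1.00 ± 0.16 (SD, n = 81) and ranged from 0.63 to 1.47, a ratio of normalized counts between 1.55 and 2.76. It was 1.05 ± 0.10 in batch 2 (n = 15), 1.04 ± 0.12 in batch 3 (n = 22), 0.94 ± 0.18 in batch 4 (n = 27) and 1.00 ± 0.18 in batch 6 (n = 16), and 1.00 in males and 0.99 in females. These are differences within a rat of counts that are not per length, so they do not give the molar ratio of the transcripts.

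**Figure D3:**
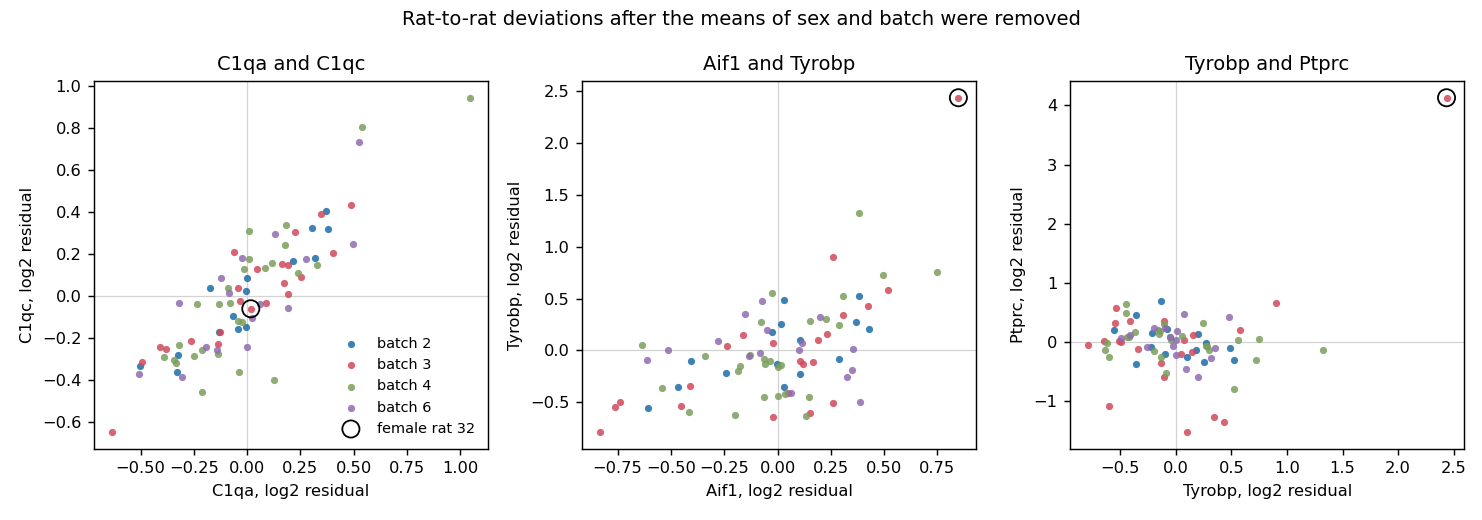
Each rat's deviation from its sex and batch means (log2) for C1qa against C1qc, Aif1 against Tyrobp and Tyrobp against Ptprc, with 1 point per rat and female rat 32 ringed. The C1q chains lie along a line (r = 0.86), and Tyrobp against Ptprc has r = 0.33 with the ringed rat and -0.23 without it.

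Tyrobp, Aif1 and the C1q chains formed a block of positive correlations, but outside the pair of C1q chains these were not among the highest that the genes had. Among 13355 genes ranked by r, Tyrobp, C1qa and C1qc were at ranks 741, 1188 and 2437 for Aif1, and Aif1, C1qa and C1qc at ranks 1111, 1570 and 2005 for Tyrobp. For C1qa, Tyrobp was at rank 1293 and Aif1 at rank 1311, and for C1qc they were at ranks 1442 and 2487. Without female rat 32 Tyrobp was at rank 328 for C1qa and 260 for C1qc, and Aif1 at rank 2152 for Tyrobp. Aif1 and Tyrobp had r = 0.56 and rho = 0.45 (permutation p = 2e-05 and 1.1e-04, adjusted p = 7.5e-05 and 3.3e-04), with 0.48 without the farthest 2 rats. Their r was 0.68, 0.71 and 0.59 in batches 2, 3 and 4 but -0.30 in batch 6. C1qa and Tyrobp had r = 0.51 and rho = 0.58 (permutation p = 2e-05 and 1e-05, adjusted p = 7.5e-05 and 3.75e-05), with 0.43 without the farthest 2 rats and 0.76, 0.42, 0.70 and 0.21 within batches 2, 3, 4 and 6. The latter r was 0.62 without female rat 32. Aif1 and C1qa had r = 0.51 and rho = 0.53 (permutation p = 1e-05 for each, adjusted p = 7.5e-05 and 3.75e-05), with 0.54 without the farthest 2 rats and 0.70, 0.60, 0.48 and 0.23 within batches.

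C1qc followed Tyrobp with r = 0.47 and rho = 0.51 (permutation p = 4e-05 and 1e-05, adjusted p = 1.2e-04 and 3.75e-05), with 0.40 without the farthest 2 rats and 0.74, 0.35, 0.60 and 0.40 within batches. It followed Aif1 with r = 0.37 and rho = 0.38 (permutation p = 6.1e-04 and 5.0e-04, adjusted p = 0.00152 and 0.00125), with 0.38 without the farthest 2 rats and 0.64, 0.60, 0.31 and -0.08 within batches. The r of C1qc with Tyrobp was 0.59 without female rat 32, and 0.74, 0.63, 0.60 and 0.43 within batches. Without that rat batch 6 had the lowest r of the 4 batches in each of the 6 pairs of this block, and with it in all but C1qc with Tyrobp. With the ribosomal mean removed from each gene, C1qa with C1qc was the 1 pair of this block still called. Aif1 with Tyrobp was then at 0.25 (adjusted permutation p = 0.0652), Aif1 with C1qa at 0.19, C1qa with Tyrobp at 0.10, C1qc with Tyrobp at 0.10 and Aif1 with C1qc at 0.02. The 3 other pairs called in that setting were Itgam with Tyrobp (0.46), with Ptprc (0.41) and with Aif1 (0.33). Without female rat 32 as well, C1qa with C1qc (0.77) and Tyrobp with Itgam (0.30, adjusted permutation p = 0.0495) were called.

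Itgam and Ptprc stood outside this block, in that none of their pairs passed by r without female rat 32. Among 13355 genes ranked by r, Itgam had Ptprc at rank 22, Tyrobp at 59, Aif1 at 172, C1qa at 2495 and C1qc at 2497. These were at ranks 479, 791, 526, 2106 and 1775 without that rat. Over 80 rats Ptprc, Tyrobp and Aif1 thus ranked higher for Itgam than the block members did for each other, C1qa with C1qc aside. Itgam and Ptprc had r = 0.41 (permutation p = 0.00253, adjusted p = 0.00542) but rho = 0.14 (permutation p = 0.235, adjusted p = 0.271), with 0.16 without the farthest 2 rats and -0.19, 0.67, -0.08 and 0.18 within batches 2, 3, 4 and 6. Without female rat 32 their r was 0.20 (permutation p = 0.107, adjusted p = 0.145), so the relation rested on that rat. Tyrobp and Itgam had r = 0.35 and rho = 0.19 (permutation p = 0.0045 and 0.0981, adjusted p = 0.00844 and 0.147), with 0.21 without the farthest 2 rats, 0.37, 0.53, 0.11 and 0.26 within batches, and 0.17 without female rat 32 (adjusted permutation p = 0.164). Aif1 and Itgam had r = 0.28 and rho = 0.16 (permutation p = 0.0181 and 0.164, adjusted p = 0.0302 and 0.224), with 0.20 without the farthest 2 rats, 0.25, 0.46, 0.20 and 0.03 within batches, and 0.20 without female rat 32 (adjusted permutation p = 0.145). The calls of both pairs thus also rested on that rat. Tyrobp and Ptprc had r = 0.33 and rho = -0.19 (permutation p = 0.0485 and 0.0967, adjusted p = 0.0727 and 0.147), with -0.19 without the farthest 2 rats, -0.42, 0.60, -0.32 and -0.15 within batches, and r = -0.23 and rho = -0.28 without female rat 32 (permutation p = 0.0591 and 0.0139, adjusted p = 0.111 and 0.0262), so that rho passed without the rat.

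C1qc and Ptprc differed by measure, with r = -0.16 (permutation p = 0.128, adjusted p = 0.175) and rho = -0.30 (permutation p = 0.00721, adjusted p = 0.0154). Their r was -0.16 without the 2 rats farthest from the C1qc median and -0.20, -0.19, -0.13 and -0.42 within batches. The other 4 pairs, C1qa and C1qc each with Itgam, C1qa with Ptprc and Aif1 with Ptprc, had r between -0.13 and 0.12 and did not pass. Of the 15 pairs, 9 passed over 80 rats and 6 over 79 rats, and these 6 are the pairs among Aif1, C1qa, C1qc and Tyrobp.

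**Figure D4:**
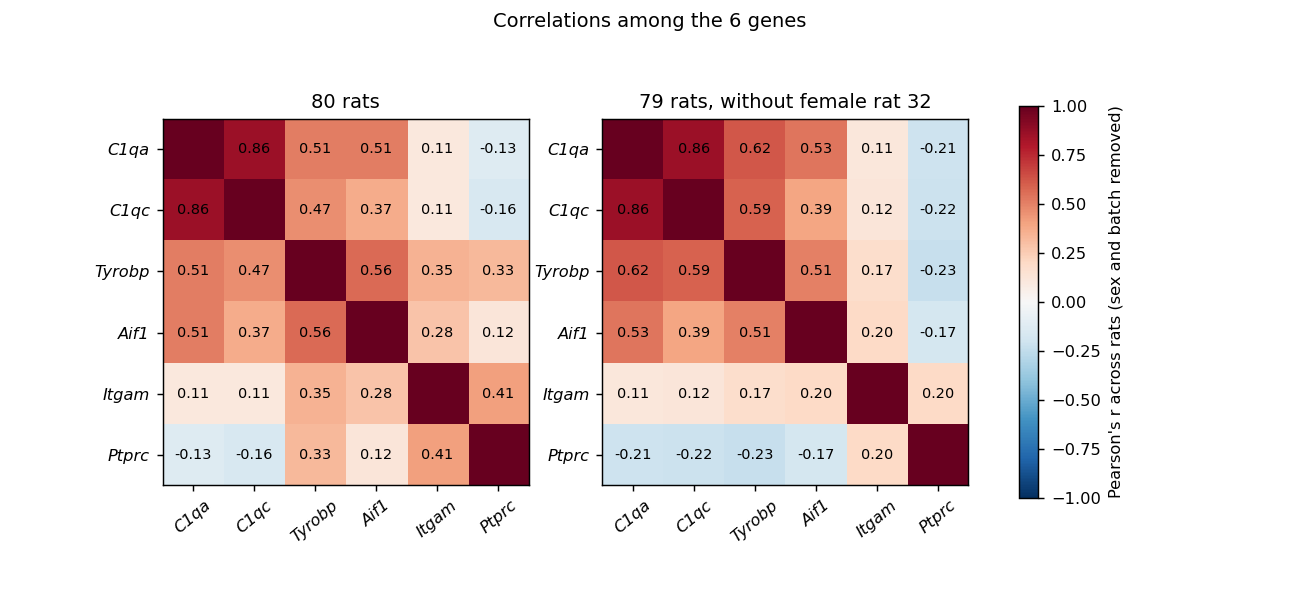
Pearson correlation between the 6 genes across rats, as deviations from sex and batch means, for 80 rats and for 79 rats without female rat 32; the colour and the printed value in each cell give r. The cells among Aif1, C1qa, C1qc and Tyrobp stay between 0.37 and 0.86 in both, and the cell of Tyrobp with Ptprc changes from 0.33 to -0.23.

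Over 80 rats Ptprc and Tyrobp were the members with the largest spread between rats. The SD after sex and batch had been removed was 0.64 for Ptprc, above 96.8% of 13361 genes whose mean log2 level reached 5, and 0.50 for Tyrobp, above 92.8%. When female rat 32 was left out they were 0.41 (above 87.1%) and 0.41 (above 86.8%). It was 0.35 for Aif1, 0.32 for Itgam, 0.29 for C1qc and 0.29 for C1qa, and the median gene had 0.22. The order of the members depended on the rats and the model. Without batch 3 the SD of Ptprc was 0.29, below that of Tyrobp (0.39), C1qc (0.31) and Aif1 (0.31), and with 20 expression components removed Tyrobp had the lowest of the 6 (0.20). All 6 were above the median gene over 80 rats, and Ptprc was also the member with the fewest counts.

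Other genes of the same cells and pathways were read one by one, since few list members had a symbol. Of 168 pairs of a member with one of 28 such genes, 59 had an adjusted permutation p under 0.05, and 45 of these were positive. Tyrobp had 11 positive and 3 negative pairs, Aif1 10 and 5, C1qa 10 and 3, C1qc 8 and 3, and Itgam and Ptprc 3 and 0 each. Without female rat 32, 50 pairs were called, and with the ribosomal mean removed 10 were. The share of all genes that would be called with each member was not computed. For scale, an r of 0.35 was at rank 3080 of 13355 genes for Tyrobp, and an r of 0.51 at rank 1293 for C1qa. A call by itself therefore does not set a listed gene apart from other genes. None of the 28 genes passed the sex test by limma, against 0.131% of all genes, and 15 of them passed the F-test over batches, against 65.3%.

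The other microglial genes did not move as one. Cyba, a subunit of the phagocyte NADPH oxidase, followed Tyrobp with r = 0.84 and rho = 0.75 (permutation p = 1e-05 for each, adjusted p = 1.68e-04 and 1.87e-04). This r was 0.73 without the 2 rats farthest from the Tyrobp median, 0.77 without female rat 32, and 0.63, 0.91, 0.89 and 0.30 within batches 2, 3, 4 and 6. Cyba was also lower in batch 6 than in batch 3 (-0.87, SE 0.15, adjusted p = 1.4e-06).

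The homeostatic receptor P2ry12 followed C1qa with r = 0.33 and rho = 0.26 (permutation p = 0.00338 and 0.0222, adjusted p = 0.0172 and 0.0777), with 0.26 without the farthest 2 rats and 0.34, 0.00, 0.56 and 0.30 within batches. Its level in batch 6 minus batch 3 was -0.03 (SE 0.11, adjusted p = 0.836), whereas C1qa differed by -0.79 in the same comparison. Sall1, a transcription factor of microglial identity, was higher in batch 6 than in batch 3 by 0.34 (SE 0.067, adjusted p = 1.1e-05). Of 8 other microglial genes, 2 (Cyba and Olfml3) were lower in batch 6 than in batch 3, 1 (Sall1) was higher and 5 did not pass, against 59.2% of all genes that passed. Of 5 complement genes, Cd59 was lower (-0.31, SE 0.057, adjusted p = 3.2e-06), Csmd1 was higher (0.50, SE 0.13, adjusted p = 3.8e-04) and 3 did not pass. Of 3 genes of activated microglia, Gpnmb was lower (-0.27, SE 0.083, adjusted p = 0.0032), Cd14 was at -0.42 (SE 0.24, adjusted p = 0.116) and Cd86, a co-stimulatory ligand, at 0.08 (SE 0.083, adjusted p = 0.451). Cd86 passed the F-test over batches (adjusted p = 4.6e-04) and had r between -0.20 and -0.02 with the 6 members, none of them past the threshold. Of the 3 genes matched in the list of TYROBP partners and signalling, none passed for batch 6 minus batch 3. Sirpa, an inhibitory receptor that binds CD47, passed the F-test over batches (adjusted p = 5.3e-04).

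In the list of TYROBP partners and signalling, Cd33, an inhibitory lectin of myeloid cells, followed Tyrobp with r = 0.37 and rho = 0.36 (permutation p = 0.00138 and 0.00147, adjusted p = 0.00927 and 0.00882). This r was 0.34 without the farthest 2 rats and 0.30, 0.32, 0.51 and 0.28 within batches. Clec5a, a receptor that signals through TYROBP, followed Ptprc with r = 0.46 (permutation p = 0.00156, adjusted p = 0.0101) and rho = 0.26 (permutation p = 0.0256, adjusted p = 0.0807), with -0.02, 0.68, 0.08 and 0.19 within batches. This r was 0.23 without the farthest 2 rats and 0.23 without female rat 32. Cd14, the lipopolysaccharide co-receptor, followed Tyrobp with r = 0.60 and rho = 0.44 (permutation p = 1e-05 and 1.3e-04, adjusted p = 1.68e-04 and 0.00156), with 0.32 without the farthest 2 rats, 0.38 without female rat 32 and -0.03, 0.71, 0.56 and 0.44 within batches. With Ptprc it had r = 0.50 and rho = 0.12 (permutation p = 0.0109 and 0.3, adjusted p = 0.0365 and 0.45), with 0.10 without the farthest 2 rats, 0.29, 0.71, -0.18 and 0.06 within batches, and 0.08 without female rat 32.

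In the complement list, Cd59, which blocks the membrane attack complex, followed C1qa with r = 0.54 and rho = 0.49 (permutation p = 1e-05 and 2e-05, adjusted p = 1.68e-04 and 2.8e-04), with 0.44 without the farthest 2 rats and 0.71, 0.51, 0.75 and -0.17 within batches 2, 3, 4 and 6. Csmd1, a complement inhibitor expressed by neurons, went the other way with Tyrobp, at r = -0.58 and rho = -0.51 (permutation p = 1e-05 and 2e-05, adjusted p = 1.68e-04 and 2.8e-04), with -0.54 without the farthest 2 rats and -0.45, -0.60, -0.70 and 0.08 within batches. Serping1, the C1 inhibitor, followed C1qa with r = 0.30 and rho = 0.29 (permutation p = 0.00869 and 0.00884, adjusted p = 0.0324 and 0.0373), with 0.30 without the farthest 2 rats and 0.33, 0.36, 0.21 and 0.37 within batches. C1r, the protease that C1q activates, and C7, of the terminal pathway, passed with none of the 6 members.

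Genes of other cell types moved with some of the members too. Stmn2, a neuronal gene, followed C1qa with r = 0.60 and rho = 0.58 (permutation p = 1e-05 for each, adjusted p = 1.68e-04 and 1.87e-04), with 0.57 without the farthest 2 rats and 0.69, 0.82, 0.52 and 0.18 within batches. Chrnb4, a nicotinic receptor subunit of the habenula, went the other way, at r = -0.50 and rho = -0.40 (permutation p = 2e-05 and 3.0e-04, adjusted p = 2.58e-04 and 0.00296), with -0.39 without the farthest 2 rats and -0.58, -0.30, -0.59 and -0.50 within batches. Chrnb4 was higher in batch 6 than in batch 3 by 0.76 (SE 0.15, adjusted p = 6.9e-06), while Stmn2 was lower (-0.28, SE 0.039, adjusted p = 5.8e-09). Slc17a6, the glutamate transporter of habenular neurons, had r = -0.48 and rho = -0.38 with Tyrobp (permutation p = 7e-05 and 8.7e-04, adjusted p = 7.35e-04 and 0.00609), with -0.40 without the farthest 2 rats and -0.06, -0.69, -0.35 and -0.33 within batches. The neuronal genes thus did not share 1 sign.

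Haemoglobin genes, which mark red blood cells, also went with C1qa and Tyrobp. Hbb followed C1qa with r = 0.44 and rho = 0.40 (permutation p = 8e-05 and 4.1e-04, adjusted p = 7.47e-04 and 0.00363), with 0.37 without the farthest 2 rats and 0.45, 0.31, 0.64 and 0.13 within batches. Hbb-bs followed Tyrobp with r = 0.42 and rho = 0.50 (permutation p = 4.4e-04 and 1e-05, adjusted p = 0.00336 and 1.87e-04), with 0.49 without the farthest 2 rats and 0.40, 0.38, 0.57 and 0.46 within batches. Batch 6 minus batch 3 was -1.27 for Hbb (SE 0.31, adjusted p = 2.6e-04). Olig2, a transcription factor of the oligodendrocyte lineage, was lower in batch 6 than in batch 3 (-0.50, SE 0.10, adjusted p = 1.8e-05), and Aqp1, a water channel of the choroid plexus, passed the F-test over batches (adjusted p = 2.9e-05). The astrocyte gene Aldh1l1 passed with none of the 6, and the part of these other cells in the levels of the members was not tested.

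**Figure D5:**
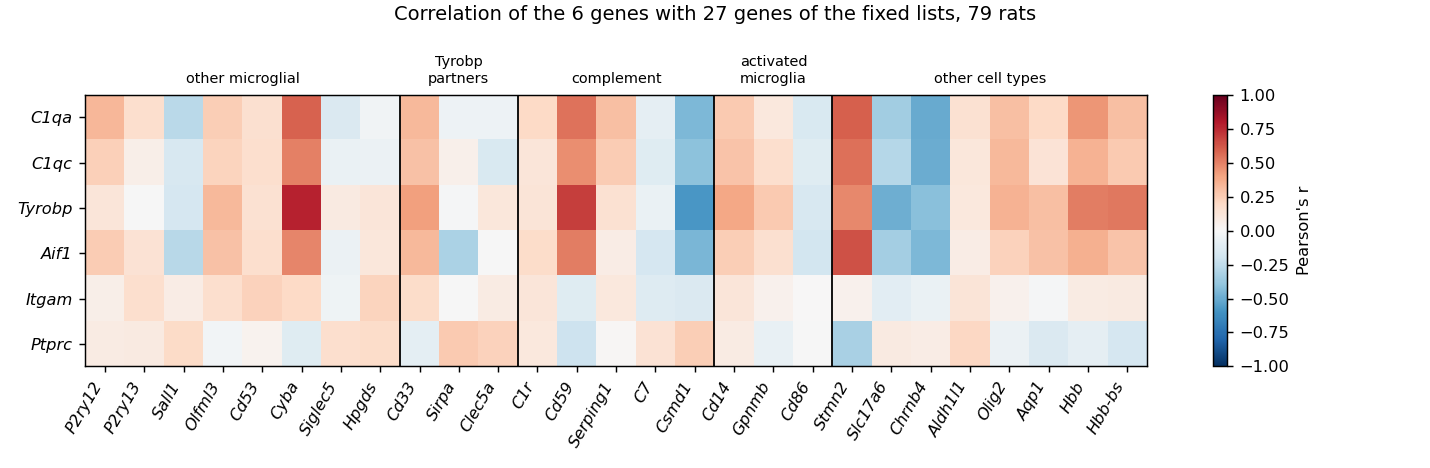
Pearson r across 79 rats (colour), without female rat 32 and after sex and batch means were removed, of each of the 6 genes (rows) with 27 genes from lists of microglia, complement and other cell types (columns). Tyrobp with Cyba has the highest value, 0.77, the rows of Itgam and Ptprc are pale, and Csmd1, Slc17a6 and Chrnb4 are negative with Aif1, C1qa, C1qc and Tyrobp.

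The genes most like each member across 80 rats, by r of the deviations from sex and batch means among the same 13355 genes, are given as a description. For C1qa these were ENSRNOG00000012062 (r = 0.80), ENSRNOG00000012749 (0.76) and Fuca1 (0.73), which encodes a lysosomal fucosidase. The first of these was second for C1qc (0.72), and ENSRNOG00000012749 was first (0.76). For Tyrobp the first was Cyba (0.84), but this place rested on female rat 32. Without that rat the first 3 were ENSRNOG00000001148 (0.86), ENSRNOG00000021035 (0.85) and Bsg (0.84), which encodes basigin, and Cyba was lower. For Aif1 the first gene with a symbol was Rps23, a ribosomal protein gene (r = 0.76, rank 5). For Itgam it was Xdh (0.44, rank 12), and without female rat 32 Ehhadh (0.38, rank 10). For Ptprc it was Myof (0.66, rank 3), which was at 0.43 and rank 30 without female rat 32. Genes in this list share libraries and depth with the members.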

How the data were processed

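Expression was measured by RNA-Seq of the LHb in 81 rats. According to the labels and the study's methods, the authors used cutadapt for trimming and RSEM on the Ensembl rat transcriptome (the labels name Rnor_6.0) for estimated counts, which DESeq2 then adjusted to a common upper quartile, and genes with few reads were dropped. Tool versions are not given in the sources used here. The deposited values are log2 of the adjusted estimated count after adding a pseudocount of 1, and 2 to the power of the value less 1 was a whole number, so a difference in log2 understates the change of low genes. Upper quartile scaling makes the levels relative to the other genes of the rat. Of 87 samples in the labels, 6 had been removed by the authors and were not analysed here, and 0 columns were unmapped.

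Sex and rat batch were taken from the labels. Tests between groups used limma 3.58.1 in R 4.3.3 (lmFit, eBayes with an intensity trend) on all 17512 genes and 80 rats, as two-sided tests or F-tests. P-values were adjusted by Benjamini-Hochberg across the whole table and called under 0.05. In a simulation in which 200 genes were changed by 0.5 on the log2 scale, the sex test recovered 94.5% and the batch test 88.5%, and 2.58% and 1.67% of their calls were false. Correlations were taken across rats on residuals after sex and batch, with 100000 permutations of rats within batch (10000 for most alternatives), adjusted over 15 pairs of members or 168 pairs with list genes. Depth before scaling was recovered from gaps in the low whole numbers; on 40 simulated libraries 38 were resolved, 37 of these within 1%. Other steps ran in Python 3.11.15 (scipy 1.17.1, numpy 2.4.6, matplotlib 3.10.9, pandas 2.3.3).

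The table gives gene identifiers only. Symbols came from pairs of identifier and symbol in the study's own tables, for 3281 genes (18.7%). Fewer than 80% of the members of every gene list had a symbol, so a list mean would be void. Single list genes were read in its place, against the plan of list means. Of other microglial genes 9 of 32 were matched, and of TYROBP partners and signalling 3 of 15. Of complement 5 of 33 were matched, of activated microglia 3 of 20 and of neurons 2 of 9. Of habenula 1 of 11 were matched, of astrocytes 1 of 8 and of oligodendrocyte precursors 1 of 4. Of choroid plexus 1 of 6 were matched, of red blood cells 2 of 7 and of microglia markers 2 of 8. For integrin partners, oligodendrocytes, endothelium, perivascular macrophages and blood leukocytes 0 were matched, so their genes are not analysed here. The values of 1 matched gene are not reported here. The genes named are the members, the 3 most alike genes of each, and of each list up to 4 genes with the smallest adjusted p for sex or batch and those with the highest and lowest r to the members' mean. C7, the first alike genes with a symbol (Bsg, Rps23, Xdh, Ehhadh), the other microglial genes read in female rat 32 and the genes listed for female rat 32 were chosen after their values were seen. The members and lists were chosen with earlier results of these data known. The alternatives were other transformations, pseudocounts, filters and scaling, further covariates and leaving out each batch; those on female rat 32, the ribosomal protein mean and batches 2 and 3 within column run 1 were added after the data were examined.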

Additional observations from a re-analysis of the deposited data

Results flagged for a closer look

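The 6 members and the difference of C1qa minus C1qc were each examined in the 4 groups of 4 to 10 rats of one sex and batch, which gives 28 sets of values. In 2 of them a rat was set far from the others, and chance gives about 1 in 20 such sets. In the 10 males of batch 3, male rat 4 had the lowest C1qa log2 level, 9.67, against 10.17 in the next rat. In the 8 males of batch 6, male rat 22 had the highest C1qc log2 level, 9.26, against 8.61 in the next rat. Female rat 32 of batch 3 was in a set of 12 rats, which is above the size tested.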

How the results depend on the processing

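No paired analysis was possible because replicate numbers only name the rats. Of 128 summary values under settings listed at the outset, 121 were labelled the same, and of 34 under settings chosen after the data were examined, 23. Most were counts of calls, labelled the same within 1.5 times the reported count, or where a count of 0 stayed at 0. The others were the difference of C1qa minus C1qc, judged by its SD, and the number of members with an SD above the median gene. With the ribosomal protein mean as a covariate the members called fell from 4 to 0 over batches, from 3 to 0 between column runs of batch 3, from 2 to 0 between batches 4 and 6 in run 3 and, over pairs of batches, from 3 to 0 (4 minus 2), 4 to 0 (6 minus 2), 4 to 1 (4 minus 3), 4 to 0 (6 minus 3) and 2 to 0 (6 minus 4). With the count of genes at 0 in the model, 1 member was called between runs, 0 between batches 4 and 6 in run 3, and 1 for 6 minus 4. With only the genes whose mean log2 level reached 5, 4 were called between batches 4 and 6 in run 3. Of 9 called pairs of members, 4 were called with the first expression component removed, 4 with the ribosomal mean removed and 2 with that and without female rat 32. Of 59 pairs with list genes, 10 were called with the ribosomal mean removed, 29 without batch 3 and 22 without batch 4. Over all genes, the 11444 batch calls were 6180 with column run and 5954 with the ribosomal mean, and the 4020 calls between runs 2210 with genes at 0 and 13 with the ribosomal mean. With the ribosomal mean, the calls for pairs of batches went from 5930 to 4679 (4 minus 2) and 7417 to 1908 (6 minus 2). They went from 9606 to 4754 (4 minus 3), 10373 to 773 (6 minus 3) and 1058 to 25 (6 minus 4). For 6 minus 4 they were 292 with genes at 0. Between batches 4 and 6 in run 3 the 1754 calls were 5 with the ribosomal mean and 198 with genes at 0. There were 1947 among the genes whose mean log2 level reached 5. The cause of these changes was not tested.

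Of 732 values of single genes or pairs under settings listed at the outset, 661 kept their direction and call and 12 turned, and of 165 under later settings 100 did so and 10 turned. Of those that turned, Tyrobp for 6 minus 2 and 6 minus 3, Itgam with Ptprc and Ptprc with Cd14 had been called, and the cause was not tested. For sex, with 20 expression components C1qa was -0.041, Tyrobp -0.091 and Ptprc -0.010; with the ribosomal mean Tyrobp was -0.0064; without batch 6 Itgam was -0.0053 and Ptprc -0.0077, and without batch 4 Ptprc was -0.020. With the ribosomal mean Tyrobp was 0.066 for batch 6 minus 4 in run 3, 0.15 for 6 minus 2 and 0.015 for 6 minus 3. Itgam for 6 minus 3 was 0.20 with column run. Ptprc for run 2 minus run 1 was -0.12 with the ribosomal mean, -0.46 with the rank-based inverse normal transformation and -0.41 without female rat 32. For Aif1 with Ptprc, r was -0.17 without female rat 32 and -0.027 with the ribosomal mean removed as well. For Tyrobp with Ptprc it was -0.11 with the transformation, -0.32 without batch 3 (adjusted permutation p = 0.0422), -0.23 without female rat 32 and -0.054 with the ribosomal mean removed as well. Without batch 3, r was -0.0074 for Itgam with Ptprc and -0.049 for Ptprc with Cd14. Ptprc had the lowest counts of the members, with a median of 58.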

Other observations

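The library of female rat 32 held other genes of white blood cells far above every other rat, given here as values chosen after they were seen. Fes, a myeloid tyrosine kinase, was at 523 normalized counts against at most 72 in the other rats, Lsp1, a leukocyte actin-binding protein, at 837 against at most 128, Ctsc, which activates proteases of leukocyte granules, at 1484 against at most 241, and Fpr2, a chemotactic receptor of neutrophils and monocytes, at 135 against at most 22. RT1-Db2, an MHC class II gene, was at 327 against at most 24, and Cd14 at 486 against at most 79. Genes not particular to white blood cells were above every other rat too. Among them were Vim (5908 against at most 2567), Zyx (1715 against at most 790) and Myof (446 against at most 199). Hbb, at 1344, was inside the range of the other rats. Of the 277 genes above every other rat, only those with a symbol could be named. Of 8 other microglial genes, Cyba, at a log2 level of 9.17 against at most 7.86, and Cd53, at 8.93 against at most 7.75, were above every other rat, and P2ry12, P2ry13, Olfml3, Sall1, Siglec5 and Hpgds were inside the range of the other rats. This library had 534 genes at 0, and its depth before scaling could not be recovered.

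The single female of batch 5, which entered no test, had 242 normalized counts of Aif1, 980 of C1qa, 495 of C1qc, 117 of Tyrobp, 229 of Itgam and 74 of Ptprc, all inside the range of the other rats.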
